A study of Homo sapiens with 9 samples.

Results

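The genes described here encode the proteins of the cytoplasmic ribosome. They were chosen by symbol: RPL or RPS followed by a number and the usual suffixes, with RPSA, RPLP0, RPLP1, RPLP2 and FAU added and RPS27L, the Y-linked copies of RPS4 and the S6 kinase genes left out. This gave 84 of the 56541 genes in the count table, 52 of the large (60S) and 32 of the small (40S) subunit. The rule used symbols and not values, and it was set with earlier results of these data known.

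A ribosome joins a large and a small subunit, each built in the nucleolus from ribosomal RNA and one copy of nearly every ribosomal protein. The mRNAs of these proteins are abundant in dividing cells, and most begin with a terminal oligopyrimidine (TOP) tract, a C at the cap followed by a run of C and T, through which mTOR signalling sets how strongly they are translated. Loss of one copy of several of these genes causes Diamond-Blackfan anaemia, a failure of red cell production.

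RNA was measured in MOLM-13, a human acute myeloid leukaemia cell line that the labels trace to peripheral blood, in 3 groups of 3 replicates. The shCONTROL group was RNA-seq of cells with the control hairpin, and the shBCLAF1 group was RNA-seq of cells whose hairpin targets BCLAF1, a protein of the nucleus with roles in splicing and transcription. The RIP group held RNA from an RNA immunoprecipitation (RIP-seq), per its labels from shCONTROL cells, and the other text of the series names BCLAF1 as its target. Every group, controls included, had 4 days of doxycycline at 200 ng/µL. RNA-seq samples were taken from 2000000 cells and RIP samples from 15000000 cells. All libraries carry the batch label 1, and nothing in the labels says that replicates are separate cultures, so the p-values measure only the spread between these samples, which may be technical. The labels name no mock precipitation, so RIP levels were compared with total RNA of the shCONTROL cells.

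Totals ran from 25819144 to 36635268 estimated counts a library. Levels are given in CPM, counts relative to a library's TMM-scaled total. BCLAF1 itself stood at 322 ± 8.40 CPM in shCONTROL, and the shBCLAF1 libraries had 113 ± 12.5 CPM (SD, n = 3 each), which is 35.2% of the control level. In the RIP the BCLAF1 mRNA stood at 1079 ± 59.5 CPM (SD, n = 3). Of 10 markers of myeloid leukaemia cells, 8 were above 0 in all 9 libraries, while CD34 and KIT were at 0 in all of them. Of 9 markers of other cell types, 4 (CD3E, EPCAM and COL1A1 among them) were at 0 in all 9 libraries and 3 (CD3D and PECAM1 among them) were above 0 in all of them.

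The first bases of these mRNAs are shown because they carry the feature that the genes share most. RefSeq promoter entries (GRCh38.p14) matched 67 of the 84 genes. At 48 of these 67 (71.6%), at least 1 annotated start was a C followed by 4 bases that were each C or T, against 5.14% of the 27305 genes with an entry. Each line gives 15 bases before an annotated start and 25 from it, on the gene's own strand from 5′ to 3′, and the capitals mark the pyrimidine run that begins at the start.
RPL35A, chr3:197950175-197950214, plus strand: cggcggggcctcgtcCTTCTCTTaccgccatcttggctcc
RPL22L1, chr3:170870171-170870210, minus strand: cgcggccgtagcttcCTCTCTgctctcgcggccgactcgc
RPL34, chr4:108620561-108620600, plus strand: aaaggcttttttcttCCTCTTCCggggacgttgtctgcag
RPS6, chr9:19380212-19380251, minus strand: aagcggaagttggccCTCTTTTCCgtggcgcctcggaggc
RPS24, chr10:78033848-78033887, plus strand: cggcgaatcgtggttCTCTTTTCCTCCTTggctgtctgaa
RPLP0, chr12:120201087-120201126, minus strand: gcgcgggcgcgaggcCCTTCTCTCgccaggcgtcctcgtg
RPS16, chr19:39435925-39435964, minus strand: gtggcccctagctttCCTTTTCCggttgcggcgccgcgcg
RPS21, chr20:62387088-62387127, plus strand: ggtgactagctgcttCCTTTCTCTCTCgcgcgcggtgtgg

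The other 19 genes with an entry had no such start. Of the 4 shown next, RPS29, RPL4 and RPL19 stand at the extremes of the RIP, and RPL26L1 did not pass in the knock-down.
RPS29, chr14:49598686-49598725, minus strand: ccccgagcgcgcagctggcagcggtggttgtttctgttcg
RPL4, chr15:66504831-66504870, minus strand: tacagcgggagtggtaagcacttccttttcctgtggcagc
RPL19, first of its annotated starts, chr17:39200268-39200307, plus strand: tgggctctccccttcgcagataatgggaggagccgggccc
RPL26L1, first of its annotated starts, chr5:172958714-172958753, plus strand: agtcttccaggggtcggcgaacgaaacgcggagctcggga
In the RPL4 window a pyrimidine tract lies a few bases inside the annotated start. At another annotated start of RPL19, not shown, such a tract spans the start base. Absence at the annotated base therefore says nothing of the tract itself. The pyrimidine start was found at 29 of 42 large subunit genes and 19 of 25 small subunit genes with an entry. In a list of other mRNAs known to carry a TOP tract (elongation and initiation factors, NPM1, TPT1 and others), 13 of 15 with an entry had it.

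The same promoter entries, from 250 bases before a start to 50 after it, were searched on both strands for 3 short motifs. CCGGAA, the core bound by ETS factors, was present at 39 of 67 genes (58.2%), against 20.1% of all genes with an entry. Its reverse complement can overlap the pyrimidine run, and with the first 20 bases from the start left out it was present at 35 of 67 (52.2%), against 18.2%. GGGCGG, the core of the GC box, was at 58.2% against 48.3%, and TATAAA was at 10.4% against 13.99%. These are matches of letters and were not tied to binding by any measurement here.

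The first comparison, shBCLAF1 against shCONTROL, asks which of these mRNAs changed when BCLAF1 was lowered. Most ribosomal protein mRNAs fell by a small and similar amount. Of 82 tested, 71 were lower, 0 were higher and 11 did not pass (edgeR quasi-likelihood test, Benjamini-Hochberg adjusted p under 0.05), while 16.9% of the 16961 genes tested were lower and 15.5% higher (32.3% in either direction). These calls rest on the error estimated from the 6 RNA-seq libraries. When all 9 libraries were fitted together, so that the wider spread of the RIP libraries entered the error, 17 of the 71 stayed lower, and the genes lower over the whole table went from 2859 to 1318. In the other fits tried, 63 of the 71 kept their call in every one. The median log2 fold change was -0.43, and -0.43 in the fit of all 9, with quartiles of -0.52 and -0.35, and over all genes tested the median was 0.017. Of the genes that passed, only RPL22L1 and RPL17 fell by 1 or more on the log2 scale, against 2.24% of all genes tested that fell and 1.77% that rose by as much.

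Abundance alone sets a different background, since abundant genes are called more often. Among the 6611 genes with a mean of at least 1000 counts, a limit chosen after the values were seen, 26.5% were lower and 22.1% higher. The libraries of both groups did not overlap at 74 of the 82 genes, all lower in shBCLAF1, against 25.1% of all genes tested that were apart in that direction. Set singly against the shCONTROL mean, shBCLAF1 replicates 1, 2 and 3 lay below it at 81, 80 and 80 of the 82 genes, with medians of -0.38, -0.49 and -0.42 (log2). The spread among the genes was narrow, with an interquartile range of 0.17 against 0.53 for all genes tested.

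**Figure D1:**
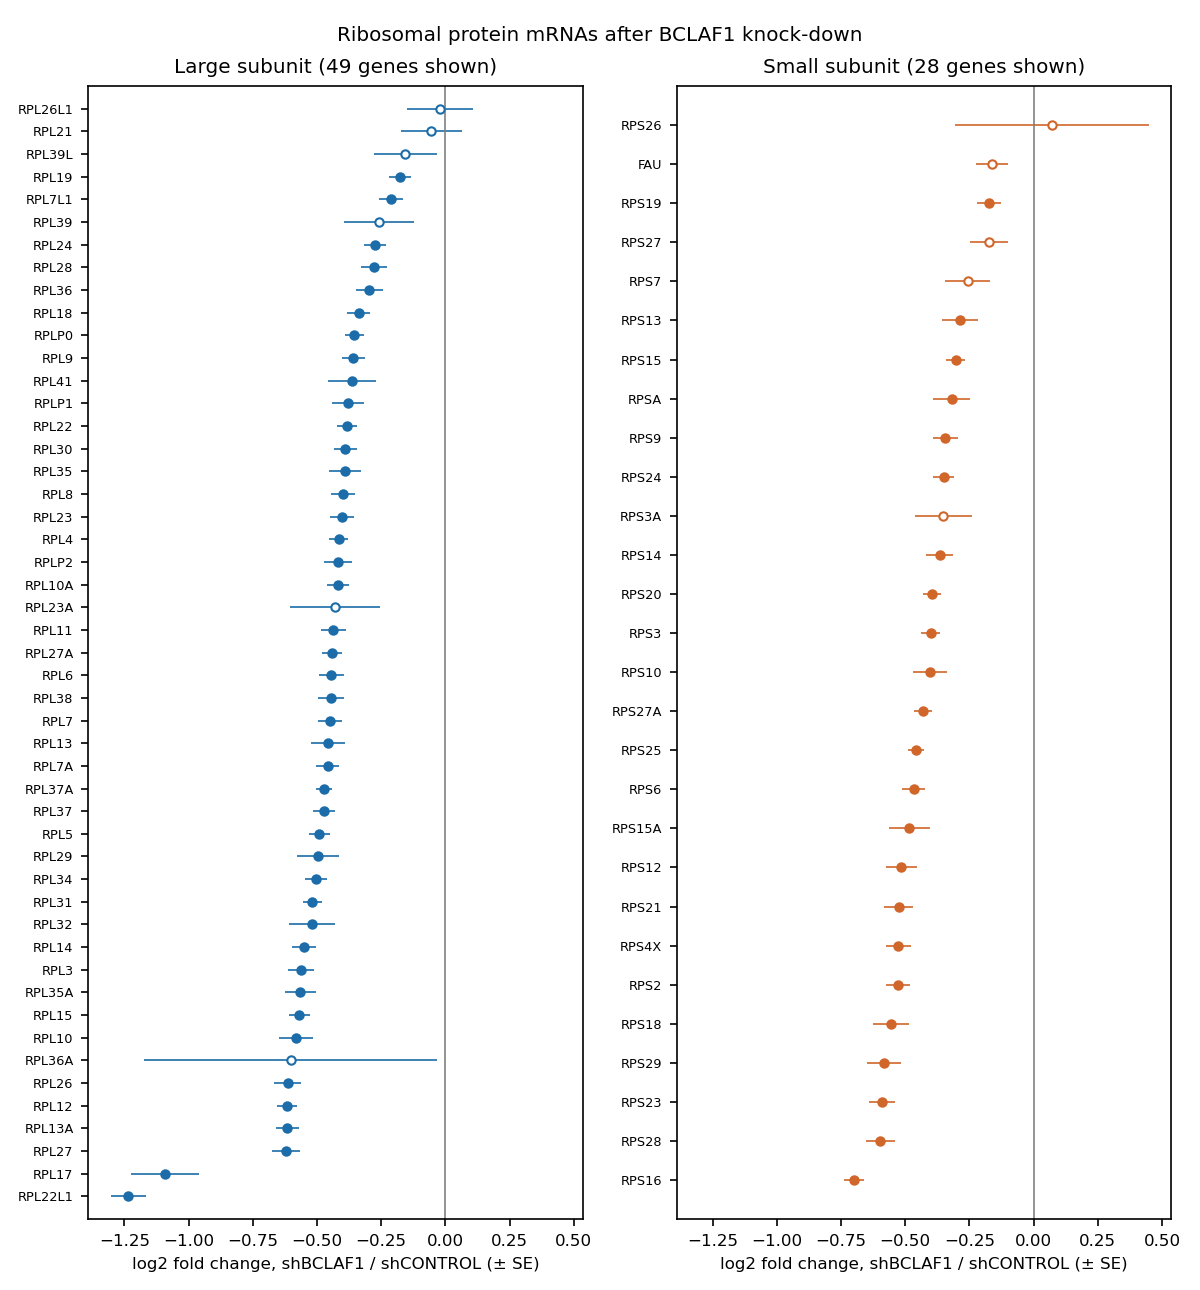
Log2 fold change of shBCLAF1 over shCONTROL for 77 of the tested ribosomal protein genes (points, with the standard error), large subunit at left and small subunit at right; filled points passed the adjusted p of 0.05 and open points did not. Nearly all points lie left of 0 in a narrow band around -0.43, with RPL22L1 and RPL17 at the low end.

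In the share of all counts, the ribosomal protein genes took 3.83%, 3.83% and 3.84% in the shCONTROL libraries. They took 3.00%, 2.83% and 2.96% in shBCLAF1, so the groups were apart and the share fell by 0.905 percentage points between the group means. An exact two-sided permutation test gave p = 0.1, the smallest that 3 against 3 allows. In bulk RNA, fewer cells with these mRNAs and less of them per cell cannot be told apart.

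Both subunits fell. Of the large subunit genes 44 of 50 tested were lower (median -0.44, log2), and of the small subunit 27 of 32 (median -0.40). Among all genes tested 16.9% were lower. The difference of the subunit medians, -0.035, was close to its spread over single shBCLAF1 replicates (SD 0.029). The ratio of large to small subunit counts was 1.47 ± 0.0099 in shCONTROL, while shBCLAF1 had 1.46 ± 0.0224 (SD, n = 3 each; exact two-sided permutation p = 0.5).

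The largest fall was that of RPL22L1, a close relative of RPL22 that can take its place in the ribosome and also binds pre-mRNA. It stood at 80.1, 76.2 and 78.7 CPM in shCONTROL and at 35.7, 33.4 and 30.3 CPM in shBCLAF1. The groups lie far apart. In edgeR's test the log2 fold change came to -1.24, with an SE of 0.07 (adjusted p = 2.02e-04). RPL22 itself went from 198, 210 and 203 CPM to 159, 152 and 156 CPM, a log2 fold change of -0.38 that also passed (adjusted p = 0.00101).

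RPL17, a large subunit protein at the exit of the peptide tunnel, stood at 119, 108 and 121 CPM in shCONTROL and 47.9, 49.1 and 66.0 CPM in shBCLAF1. These groups did not overlap either, and on the log2 scale the difference was -1.09 (adjusted p = 0.00190, SE 0.13). The annotation also holds a read-through transcript that joins RPL17 to its neighbour, whose reads cannot be told apart from those of RPL17 in gene counts. RPS16, at the decoding side of the small subunit, went from 781, 750 and 763 CPM to 480, 449 and 480 CPM, a log2 fold change of -0.70 (SE 0.04). RPL27 and RPL13A, both of the large subunit, followed at -0.62 each, and all of their shBCLAF1 libraries lay below all shCONTROL libraries. RPL13A has a role outside the ribosome as well, in silencing the translation of certain inflammatory mRNAs.

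**Figure D2:**
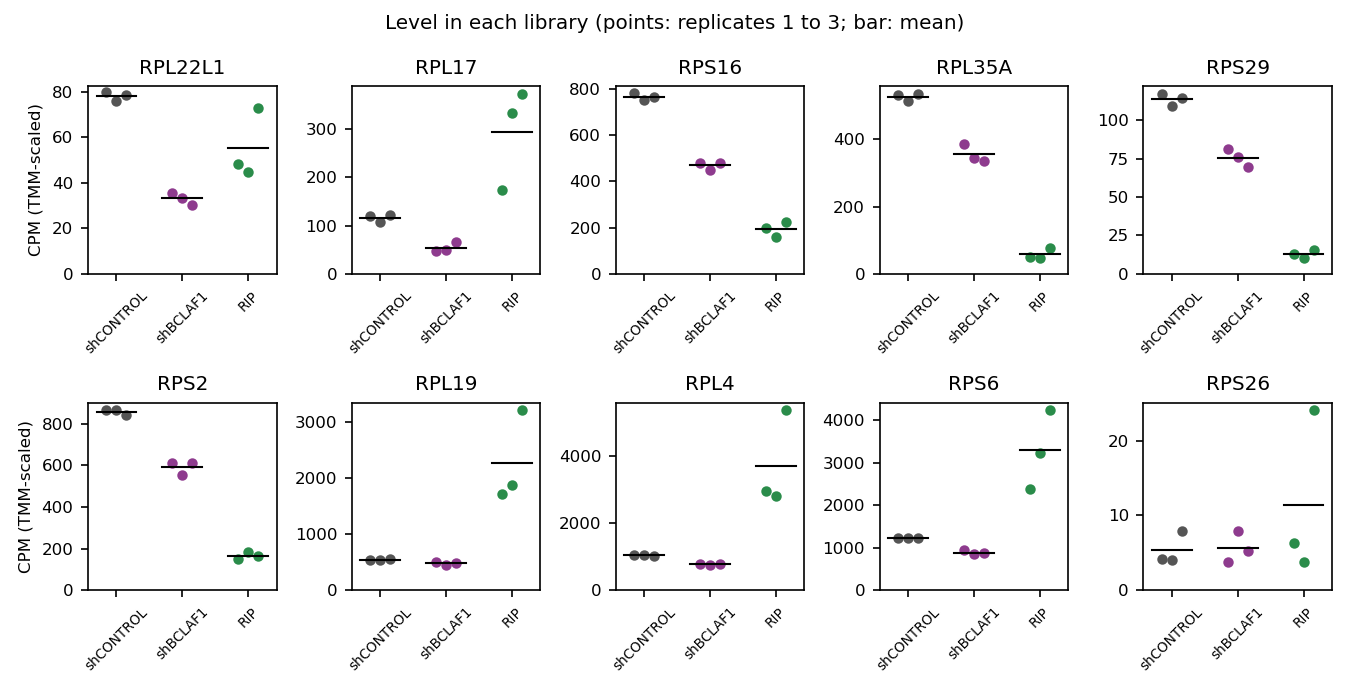
TMM-scaled CPM of 10 ribosomal protein genes in each of the 9 libraries (points are replicates 1 to 3, bars are means, and each panel has its own axis from 0). RPL22L1, RPL17 and RPS16 separate shBCLAF1 from shCONTROL, RPL35A, RPS29 and RPS2 are low in the RIP, RPL19, RPL4 and RPS6 are high in it, and RPS26 varies within every group.

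Genes were also grouped by the role of their protein in the ribosome. RPL5 and RPL11, which carry 5S rRNA into the large subunit and can hold MDM2 when free, had log2 fold changes of -0.49 and -0.44, and both passed. All 4 genes of the stalk that recruits elongation factors passed too: RPLP0 at -0.36, RPLP1 at -0.38, RPLP2 at -0.42 and RPL12, the base protein, at -0.62. Of the 3 genes at the mRNA entry channel of the small subunit, RPS2 (-0.53) and RPS3 (-0.40) passed. The third, FAU, which is made as a fusion of a ubiquitin-like protein with the ribosomal protein eS30, had -0.16 and did not pass (adjusted p = 0.102). RPS27A, the other fusion in the set, which carries ubiquitin itself, was lower at -0.43.

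Of the 9 genes on a list for Diamond-Blackfan anaemia, 7 were lower, and the median was -0.41 (log2). The ribosomal protein genes as a whole had 71 of 82 lower, and all genes tested 16.9%. RPS19, the gene most often mutated in that disease, stood at 674, 650 and 659 CPM in shCONTROL and 617, 554 and 583 CPM in shBCLAF1. The groups were apart, but the change was small, -0.17 (SE 0.05, adjusted p = 0.0342), and its call was lost in 5 of the 6 fits that left out 1 library. RPL35A, another of the 9, fell further, from 531, 513 and 534 CPM to 385, 345 and 334 CPM (log2 fold change -0.56). RPS7 (-0.26, adjusted p = 0.0749) and RPS26 did not pass.

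The 11 genes that did not pass differ in kind. RPS26 stood at 4.19, 4.08 and 7.98 CPM in shCONTROL and 3.73, 7.98 and 5.32 CPM in shBCLAF1, so its groups overlap fully and its value of 0.07 (SE 0.38) is the one above 0. RPL36A stood at 17.6, 18.6 and 19.7 CPM against 3.21, 15.1 and 18.4 CPM, with shBCLAF1 replicate 1 far below the rest. Its value of -0.60 came to -0.15 without that replicate. Both genes have many near-identical copies in the genome, and an estimated count can move between copies. Whether that had a part in these values was not tested.

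RPL23A (-0.43), RPS3A (-0.35), RPL39 (-0.26), RPS7 and RPS27 (-0.17) had values below 0 with wider errors, and of these RPS3A, RPS7 and RPS27 had groups that did not overlap. RPL21 had a value of -0.05 and overlapping groups.

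The second copies, close relatives of a ribosomal protein gene that are often expressed in few tissues, did not move as one. RPL22L1 was lower at -1.24 in every fit tried. RPL7L1 was lower at -0.21, a call lost in 6 of the 13 other fits, while RPL26L1 (-0.02) and RPL39L (-0.16) did not pass and their groups overlapped. RPL3L, the copy of RPL3 in heart and skeletal muscle, was at 0 in all 6 RNA-seq libraries, and RPL10L, the copy of RPL10 in testis, was at 0 in all 9. Among the genes they derive from, RPL3 (-0.56), RPL7 (-0.45), RPL10 (-0.58), RPL22 and RPL26 (-0.61) were lower, and RPL39 did not pass.

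Of the genes of the ribosome that the symbol rule leaves out, RACK1, a scaffold on the small subunit, was lower at -0.53. RPL36AL (0.01) and RPS27L (-0.38, SE 0.28) did not pass.

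Genes with and without the pyrimidine start had the same median in the knock-down. The median log2 fold change was -0.43 for the 48 genes with it, of which 42 were lower, and -0.43 for 18 tested genes with another start, of which 15 were lower. Of 21 other mRNAs known for a TOP tract, 13 were lower and 0 higher, against 16.9% and 15.5% of all genes tested. Their median was -0.30. EEF2, which moves the ribosome along the mRNA, had a value of -1.12, NPM1, a nucleolar chaperone, -1.02, NAP1L1 -0.58 and EIF4B -0.50. The initiation factor EIF3L (-0.05) and VIM (-0.03) did not pass; these 2 were chosen after their values were seen.

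Among 17 genes of the signalling that acts on TOP mRNAs, 7 were lower, 0 higher and 10 did not pass. Their median log2 fold change was -0.021, with 9 of the 17 below 0, so the list did not fall as a whole. Over all genes tested 16.9% were lower and 15.5% higher. MLST8, a subunit of the mTOR complexes, had -1.42. EIF4EBP1, a repressor of cap-dependent translation, had -1.04. MYC, which drives transcription of ribosomal protein genes, went from 679 ± 14.2 to 368 ± 7.24 CPM (SD, n = 3 each), a log2 fold change of -0.88. Of 50 ribosome assembly factors, 28 were lower and 2 higher, with a median of -0.27; RRP1B (-0.99), NAT10 (-0.67), PDCD2 (-0.55) and RPF2 (-0.49) had the smallest adjusted p values. The 2 that rose, named after their values were seen, were EIF6 (0.27), which keeps the subunits apart, and RRN3 (0.22), a factor of RNA polymerase I.

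The changes were small: 23 of the 71 reached 0.5 in size on the log2 scale. The summed level of the myeloid markers moved with the groups, from 1595 to 1691 CPM in shCONTROL to 3335 to 3738 CPM in shBCLAF1, where LYZ, which encodes lysozyme, had the highest level. The markers did not move as one: of 8 tested, 3 were lower and 3 higher, with a median log2 fold change of 0.079. Over all genes tested 16.9% were lower and 15.5% higher. The summed level of the markers of other cell types was 196 to 208 CPM in shCONTROL and 223 to 269 CPM in shBCLAF1. The part of either in the fall was not tested.

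The second comparison, RIP against shCONTROL RNA-seq, asks which of these mRNAs were over- or under-represented in the precipitate. It shares the shCONTROL libraries with the knock-down, so values of both are given side by side and no relation between them was computed. Here the ribosomal protein mRNAs did not behave as a block. Of 83 tested, 35 were lower and 24 higher in the RIP, and 24 did not pass (edgeR quasi-likelihood test, Benjamini-Hochberg adjusted p under 0.05), against 24.7% lower and 24.6% higher of the 16727 genes tested (49.2% in either direction). When the change also had to reach 1 on the log2 scale, 25 were lower and 18 higher, against 13.5% and 11% of all genes tested. RPL3L, with 0 counts in all shCONTROL libraries, was among the 83 tested, the 24 higher and these 18. It entered the test only through the RIP libraries, so it could only be higher.

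Leaving out RPL3L, the values ran from -3.18 to 2.05 (log2). With RPL3L in, the median was -0.28, against -0.049 over all genes tested. The interquartile range was 2.12 with RPL3L in, against 1.43 for all genes tested and 0.17 for these genes in the knock-down. The RIP libraries lay wholly below shCONTROL at 38 genes and wholly above at 27, against 35.1% and 31.9% of all genes tested. RPL3L was among the 27. Among the 6611 genes with a mean of at least 1000 counts, 30% were lower and 35.5% higher, beside 42.2% and 28.9% of the ribosomal protein genes.

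**Figure D3:**
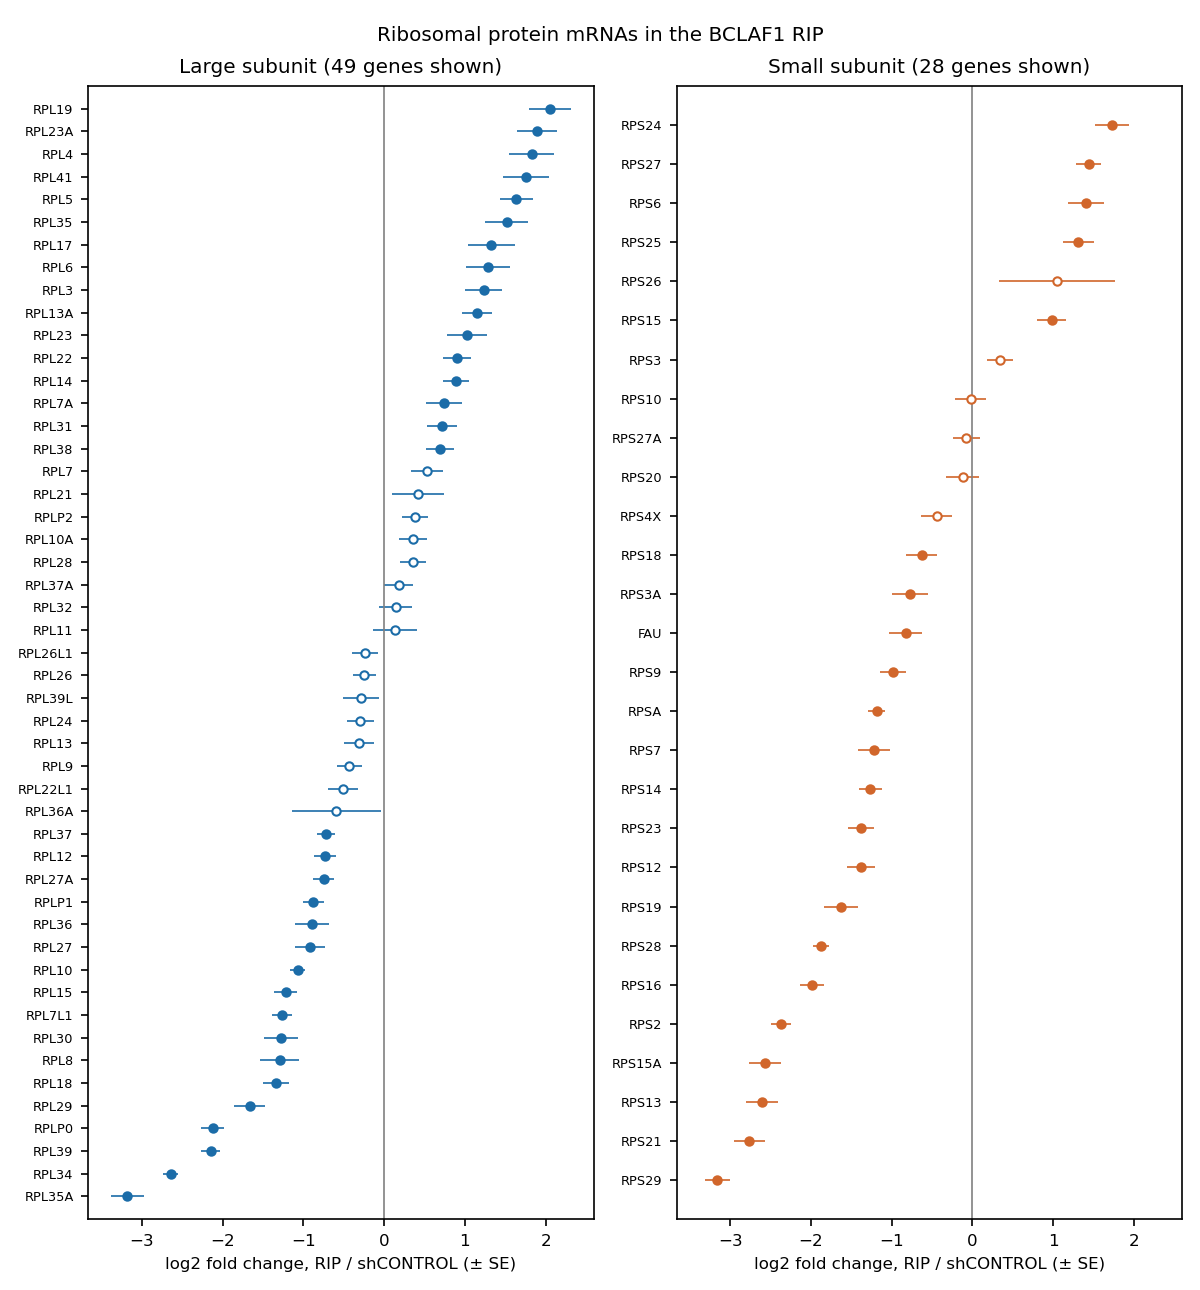
Log2 fold change of the RIP over shCONTROL RNA-seq for 77 of the tested ribosomal protein genes, RPL3L left out (points, with the standard error), large subunit at left and small subunit at right; filled points passed the adjusted p of 0.05. The genes spread over more than 5 log2 units, from RPL35A at -3.18 to RPL19 at 2.05, on both sides of 0 in each subunit.

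RIP replicate 3 stood apart from the other RIP libraries. Ribosomal protein genes took 3.55%, 3.95% and 5.17% of the counts in RIP replicates 1, 2 and 3, and the median of their single log2 ratios was -0.49, -0.46 and 0.05. Without replicate 3, 43 genes were lower and 23 higher, and the median was -0.48. It was -0.17 without replicate 1, with 33 lower and 28 higher, and -0.21 without replicate 2, with 33 and 25. With the mean of shCONTROL and shBCLAF1 as reference it was -0.075, with 34 and 31. The mean share of 4.22% ± 0.839 (SD, n = 3) lay within a range that spans the shCONTROL values (exact two-sided permutation p = 0.7). The median coefficient of variation over the genes was 25.2% in the RIP, against 2.37% in shCONTROL and 5.41% in shBCLAF1.

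**Figure D4:**
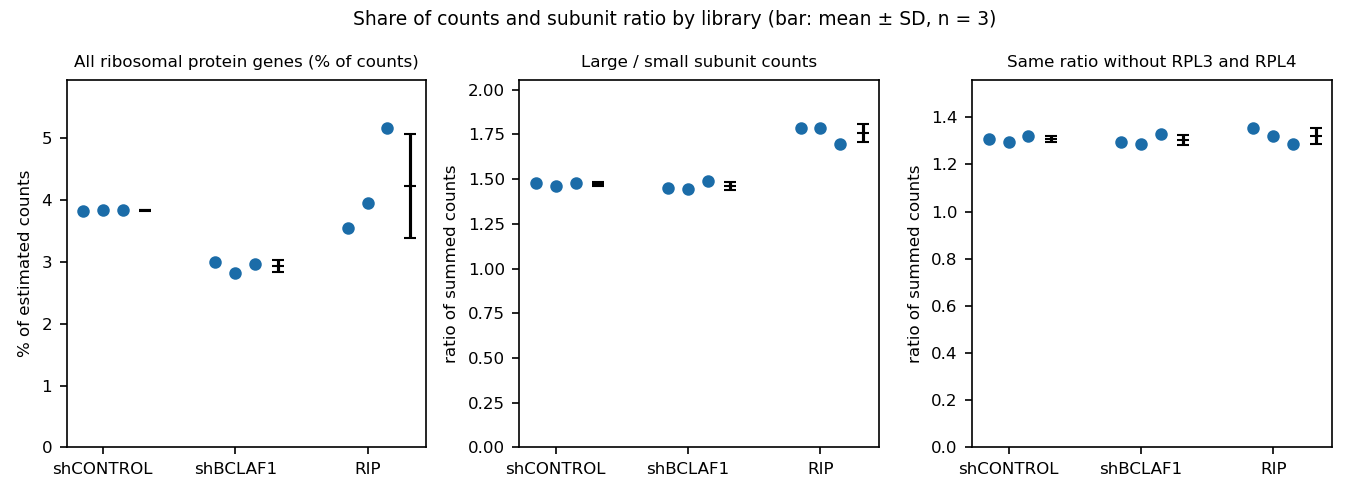
Share of the estimated counts held by the ribosomal protein genes (left), the ratio of large to small subunit counts (middle) and that ratio without RPL3 and RPL4 (right), by library, with the mean and SD beside the points (n = 3). The share is lower in all shBCLAF1 libraries, the full ratio is higher in all RIP libraries, and without the 2 genes the ratios overlap.

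The lowest gene in the RIP was RPL35A, a large subunit protein needed for rRNA processing. It stood at 531, 513 and 534 CPM in shCONTROL and 51.0, 48.0 and 76.1 CPM in the RIP, about an order of magnitude lower with no overlap. In edgeR's test the difference on the log2 scale was -3.18, with an SE of 0.20 (adjusted p = 2.42e-04). RPS29, a small zinc-binding protein of the 40S head, stood at 117, 109 and 115 CPM in shCONTROL and 12.8, 10.2 and 15.3 CPM in the RIP, a log2 fold change of -3.16 (SE 0.16). RPS21 (-2.76), RPL34 (-2.64) and RPS13 (-2.61) followed. All of their RIP libraries lay far below all shCONTROL libraries.

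The highest was RPL19, a large subunit protein that forms a bridge to the small subunit. It stood at 542, 535 and 558 CPM in shCONTROL and 1717, 1884 and 3212 CPM in the RIP, where replicate 3 was the highest. The groups were apart, by 2.05 on the log2 scale (SE 0.26, adjusted p = 0.00147). RPL4, whose long loop reaches into the peptide tunnel, went from 1057, 1047 and 1014 CPM to 2970, 2796 and 5360 CPM (1.83, SE 0.28). RPL23A (1.89), at the tunnel exit, and RPL41 (1.76), the shortest protein of the set, were also among the highest 5, and neither overlapped with shCONTROL.

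In the knock-down, RPL35A and RPS29 had values of -0.56 and -0.58, below the lower quartile of the ribosomal protein genes. Of the others among the 5 lowest in the RIP, RPS21 had -0.53, RPL34 -0.50 and RPS13 -0.29, the last above the upper quartile. Of genes among the highest in the RIP, RPL4 had -0.42, RPL23A -0.43 and RPL41 -0.36. RPL19 had -0.18, above the upper quartile, with a call lost in 5 of the 13 other fits. RPL17 was low in the knock-down (-1.09) and higher in the RIP, at 173, 333 and 373 CPM (log2 fold change 1.33, adjusted p = 0.0104). RPS16 was low in both, with 199, 157 and 226 CPM in the RIP and a log2 fold change of -1.99. RPL22L1 had 48.4, 44.9 and 72.8 CPM in the RIP; its libraries lay below shCONTROL, but the value of -0.51 did not pass (adjusted p = 0.0672).

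Genes with a shared role were split in the RIP. RPL5 was higher, at 1630, 2210 and 2735 CPM against 715, 700 and 693 CPM (log2 fold change 1.63), while its partner RPL11 had 381, 799 and 591 CPM, overlapped shCONTROL and did not pass (0.13, SE 0.27). In the stalk, RPLP0 was lower, at 135, 128 and 174 CPM against 634, 644 and 616 CPM (-2.13), as were RPLP1 (-0.88) and RPL12 (-0.73), while RPLP2 had 0.38 and did not pass. At the mRNA entry channel RPS2 was lower (-2.37) and FAU too (-0.83), and RPS3 had 0.34 and did not pass.

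Of the 9 Diamond-Blackfan anaemia genes, RPL35A, RPS19 (-1.63) and RPS7 (-1.22) were lower, RPL5 and RPS24 (1.72) were higher, and 4 did not pass, RPL11, RPS10 and RPS26 among them. That is 3 lower and 2 higher, beside 24.7% and 24.6% of all genes tested. RPS24, a small subunit protein with roles in rRNA processing, stood at 479, 479 and 496 CPM in shCONTROL and 1225, 1503 and 2092 CPM in the RIP. RPS6, the substrate of the S6 kinases, went from 1227, 1241 and 1226 CPM to 2388, 3240 and 4247 CPM (log2 fold change 1.41), and was named after its values were seen.

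Among the second copies, RPL7L1 was lower (-1.27), and RPL22L1, RPL26L1 and RPL39L did not pass. RPL3L had 10, 15 and 21 counts in the RIP libraries against 0 in all shCONTROL libraries. Set against a floor of 3 counts a library, that is at least 6.32-fold higher. Of the genes they derive from, RPL3 (1.23) and RPL22 (0.91) were higher, RPL10 (-1.07) and RPL39 (-2.15) lower, and RPL7 and RPL26 did not pass. Outside the symbol rule, RACK1 (-1.05) and RPS27L (-1.56) were lower.

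The subunits differed in the RIP by their medians. Of the large subunit 17 genes were lower and 17 higher of 51, RPL3L among the higher, with a median of -0.11. Of the small subunit 18 were lower and 7 higher of 32, with a median of -0.80. Among all genes tested 24.7% were lower and 24.6% higher, and the small subunit's 21.9% higher was near that share. The genes of both subunits overlapped widely, with quartiles of -0.89 and 0.90 for the large subunit and -1.44 and 0.50 for the small. The difference of 0.69 compares with an SD of 0.116 over single RIP replicates, a spread between libraries and not between genes. It was 0.56 without RIP replicate 2. Without second copies and genes of low count it was 0.93, and the median of the large subunit was then 0.14.

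The ratio of large to small subunit counts was higher in every RIP library, at 1.79, 1.79 and 1.70, than in any shCONTROL library (exact two-sided permutation p = 0.1, the smallest that 3 against 3 allows). RPL3 and RPL4 are abundant and were higher in the RIP. Without these 2, picked for that after the values were seen while small subunit genes such as RPS6 were kept, it was 1.32 ± 0.0349 in the RIP and 1.31 ± 0.0118 in shCONTROL (SD, n = 3 each), a description that carries no test.

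**Figure D5:**
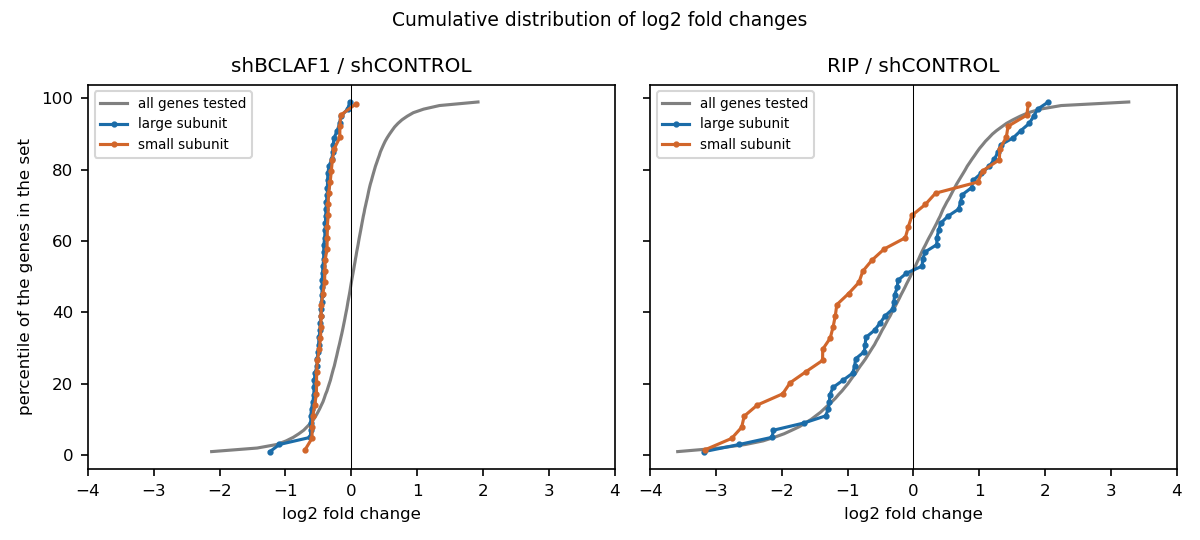
Cumulative distribution of log2 fold changes for all genes tested (grey line), large subunit genes (blue) and small subunit genes (orange), for the knock-down at left and the RIP at right; RPL3L is left out. In the knock-down both subunits form steep curves left of the grey line, and in the RIP the large subunit runs close to the grey line while the small subunit lies left of it over most of its range.

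Genes with the pyrimidine start had a median of -0.55 in the RIP, with 23 lower and 12 higher of 48, and those with another start -0.05, with 6 lower and 6 higher of 18. Both sets spanned the range: RPL35A and RPL41 have the start, and RPS29 and RPL19 have no annotated start of that kind. At RPL19, though, a pyrimidine tract spans an annotated start whose first base is a T, so the classes rest on the annotated base. Of the other mRNAs known for a TOP tract, 8 were lower and 6 higher of 21, with a median of 0.19. Over all genes tested 24.7% were lower and 24.6% higher. Among these other TOP mRNAs, EIF3E (-1.97), COMMD6 (-1.86) and EIF2S3 (-1.11) were lower and NAP1L1 (1.18) was higher.

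Many introns of ribosomal protein genes hold snoRNAs, small RNAs that guide rRNA modification. In the reference annotation 29 of the 84 genes had at least 1 snoRNA gene within their span, with strand not considered. The 6 genes with 4 (RPL3, RPL4, RPL7A, RPL13A and RPL23A among them) were all higher in the RIP, between 0.74 and 1.89, with a median of 1.27; the call of RPL7A was lost in some alternatives. The 23 genes with 1 to 3 had a median of -0.31, with 11 lower and 4 higher. The 55 genes with none had -0.44, with 24 lower and 14 higher of 54 tested. Among all genes tested 24.7% were lower and 24.6% higher, beside 44.4% and 25.9% of the genes with none. This grouping by number was made after the values were seen and carries no test.

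Across 82 genes the RIP value and the number of snoRNAs had a Pearson r of 0.28 and a Spearman rho of 0.21, and the RIP value and the length of the gene's span an r of 0.0037. These are descriptions across genes that share the same libraries. In the knock-down the 3 groups of genes had medians of -0.44, -0.42 and -0.43. Of the 60 snoRNA genes within these spans, 24 were in the count table. In the knock-down 0 of the 15 tested passed, against 32.3% of all genes tested. In the RIP 1 of 14 was lower and 1 higher, against 24.7% and 24.6% of all genes tested. With so few tested, these counts do not show that the snoRNAs were unchanged.

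Of 50 ribosome assembly factors, 9 were lower and 23 higher in the RIP (18% and 46%), against 24.7% and 24.6% of all genes tested. Their median was 0.48. EIF6 (-2.31) and RRP9 (-1.24), a protein of the U3 snoRNP, were lower, and NVL (1.21) and DDX10 (1.33), both needed for the large subunit, were higher.

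Processed pseudogenes of ribosomal protein genes are numerous and share sequence with them, so reads may be divided among copies. The table held 1250 of them. Their mean share of counts was 0.762% for shCONTROL, 0.587% for shBCLAF1 and 1.02% for the RIP. In the knock-down 78 of 294 tested were lower and 2 higher, against 16.9% and 15.5% of all genes tested, with a median of -0.25. In the RIP 64 of 282 were lower and 67 higher (22.7% and 23.8%), with a median of -0.37. These shares were near the 24.7% and 24.6% of all genes tested. The number of pseudogenes a gene has was only weakly related to its RIP value (Spearman rho 0.017) and to its knock-down value (-0.20) over 82 genes.

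Of the 59 genes called in the RIP, 50 kept their call in all other fits, before any minimum size of change, and FAU, RPL23, RPL31, RPL36, RPL38, RPL3L, RPL7A, RPS18 and RPS3A lost theirs in at least 1. Of the 24 not called, 16 gained a call in at least 1. Summed levels of the markers of other cell types were 196 to 208 CPM in shCONTROL and 433 to 678 CPM in the RIP, most of it PECAM1, and their part in the differences was not tested.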

How the data were processed

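The authors deposited 1 table of estimated counts (expected counts) per gene for the 9 libraries; its values were whole numbers and not normalized. The submitters' processing notes name STAR 2.7.11b, StringTie 2.2.3 and hg38; annotation and counting settings are not given in the sources used here. Another 1 entry named no gene, had a value in 8 libraries (2.18% to 3.75% of counts) and was left out. Each contrast was fitted on its own 6 libraries, over all genes, with edgeR 4.0.16 in R 4.3.3: filterByExpr (minimum count 10), TMM, the quasi-likelihood test with group as the only term, a prior count of 2, and Benjamini-Hochberg adjustment with a threshold of 0.05. Standard errors derive from the coefficient and its F statistic. A gene is called off at or under 3 counts a library (0.0819 to 0.116 CPM), which covers counting error only. The ribosomal protein genes and all lists were chosen with earlier results of these data known. Named by rule were BCLAF1, the 5 lowest and 5 highest genes of each contrast (mean of at least 50 counts), genes not passing in the knock-down, genes of the role, disease and second-copy lists, and up to 4 genes of smallest adjusted p in other lists. Alternatives covered filters, scaling, DESeq2 1.42.0, all 9 libraries in 1 fit, the replicate block, minimum changes and each library left out. All 84 identifiers matched the gene name table. Gene spans and promoter sequences are those of RefSeq on GRCh38.p14. Genes without a promoter entry included RPL5, RPL7, RPL8, RPL23, RPL23A, RPL30, RPL37, RPL39L, RPL3L, RPS2, RPS15A and RPS20. Some genes are not reported here by name; they stay in every fit and count and are left out of the plots of single genes.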

Additional observations from a re-analysis of the deposited data

How the results depend on the processing

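Beside 71 ribosomal protein genes lower in the knock-down, 63 to 70 were lower with 1 library left out (63 to 69 of the 71 kept their call), 17 in the single fit of all 9 libraries and 23 when a change of 0.5 or more on the log2 scale was required. The large minus small subunit median in the RIP was 0.56 to 0.72 with 1 library left out and 0.93 without second copies and low genes; the cause was not tested. Total counts in place of TMM moved the median of all genes in the RIP from -0.05 to -0.16, and the ribosomal protein genes' median from -0.28 to -0.39.

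Replicates share numbers across groups, but no correlation of the deviations of same-numbered libraries was over 0.1 (0.026, 0.084 and 0.035 between shCONTROL and shBCLAF1, and -0.023, 0.018 and 0.020 with the RIP), so the numbers were not taken as pairs. In the knock-down every library correlated best with its own number, a hint from the data and not from the design. With the replicate block 72 genes were lower in the knock-down, and 33 lower and 22 higher in the RIP.

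Some genes changed sign, none of them called with the settings of the report. In the knock-down with 1 library left out, the log2 values ran from -0.096 to 0.081 for RPL26L1, from -0.26 to 0.46 for RPS26, from -0.18 to 0.024 for RPL21 and from -0.056 to 0.054 for RPL36AL, and with total counts RPL26L1 had 0.028. In the RIP they ran from -0.16 to 0.37 for RPL11, from -0.26 to 0.11 for RPS10 and from -0.11 to 1.46 for RPS26. RPL11 had -0.0035 with total counts. With the mean of shCONTROL and shBCLAF1 as reference, RPS10 had 0.19, RPL22L1 0.12 and RPL26 0.072.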
